A study of Mus musculus with 4 samples.

Results

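Voltage-gated calcium and sodium channels were examined through the RNA of their subunit genes in mouse pancreatic islets. The members were all genes of the count table whose symbols name a pore subunit of these channels (Cacna1a to Cacna1i, Cacna1s, and the Scn genes ending in a) or one of their auxiliary subunits (Cacna2d, Cacnb, Cacng, and the Scn genes ending in b). There were 40 members among 55536 genes. The rule used names alone, but it was chosen with earlier results of these data known. Islets, which hold the endocrine cells of the pancreas, came from male C57BL/6 mice aged 8 weeks, and polyadenylated RNA was made into sequencing libraries with or without a step that removes insulin sequences. The non-depleted group had 2 libraries without that step and the insulin-depleted group had 2 libraries put through the DepleteX insulin panel sold by Jumpcode Genomics, with no other treatment or genotype named for either. The labels call the 2 libraries of a group biological replicates, but all 4 column names carry one shared pair of codes, so pooled or shared animals cannot be told apart from separate ones and p-values measure only the spread between these libraries. The names of the non-depleted columns also hold a tag that may stand for a size selection, a step that cannot be told apart from depletion.

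Voltage-gated calcium channels open when a cell depolarises and let calcium in. In islet cells that calcium triggers the fusion of hormone granules with the plasma membrane. The pore subunit, alpha1, sets the current type, and in the high-voltage-activated L, P/Q, N and R types it is joined by a cytoplasmic beta subunit and a mostly extracellular alpha2-delta subunit, both of which raise the number of channels at the surface. Voltage-gated sodium channels carry the fast upstroke of action potentials. Their pore subunits work alone or with beta subunits, single-pass membrane proteins that alter gating and adhesion.

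The 4 libraries held 19316173 to 65030111 gene counts, lowest in insulin-depleted replicate 1. Ins1 and Ins2 took 3.97 to 4.14% of counts without and 0.195 to 0.264% with depletion, which checks the labels. Levels are given as CPM, in which each library's counts outside Ins1 and Ins2 are scaled to a sum of 1000000, and levels of different genes are compared as CPM per kb of the gene's merged exons. The tissue label was checked against marker genes: the beta-cell peptide gene Iapp (18038 CPM on average) and the glucagon gene Gcg (11996 CPM) were abundant. Genes of other cells of an islet preparation were present too. Their lists summed to 4961 to 11978 CPM for 9 acinar, 885 to 977 for 6 endothelial, 60.9 to 73.8 for 8 peripheral neuron and 40.5 to 44.2 CPM for 8 Schwann markers. A channel level below is therefore that of the whole preparation, in which fewer cells of a type and less RNA per cell cannot be told apart.

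Islet RNA held a small set of strongly expressed channel subunits, and 1 to 3 genes took most of the RNA of the calcium pore, alpha2-delta, beta and sodium pore classes. By CPM per kb, the alpha2-delta gene Cacna2d1 came first on average with 22.4 ± 0.282 (SD, n = 4 libraries). Next were the beta gene Cacnb3 with 20.4 ± 2.18 and the L-type pore genes Cacna1c with 17.7 ± 0.713 and Cacna1d with 17.4 ± 1.23. The ranges of Cacna2d1 and Cacnb3 overlapped, and in non-depleted replicate 2 Cacnb3 had 22.9 against 22.5 for Cacna2d1. These 4 genes stood above 85.1 to 88.9% of the 19620 genes tested. At least 2 CPM on average was reached by 23 members and at least 10 CPM by 13. All members together took 0.132 to 0.147% of the counts outside insulin. Of 32 pairs of neighbours in the order within the 8 classes, 19 had ranges over the 4 libraries that did not overlap.

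**Figure D1:**
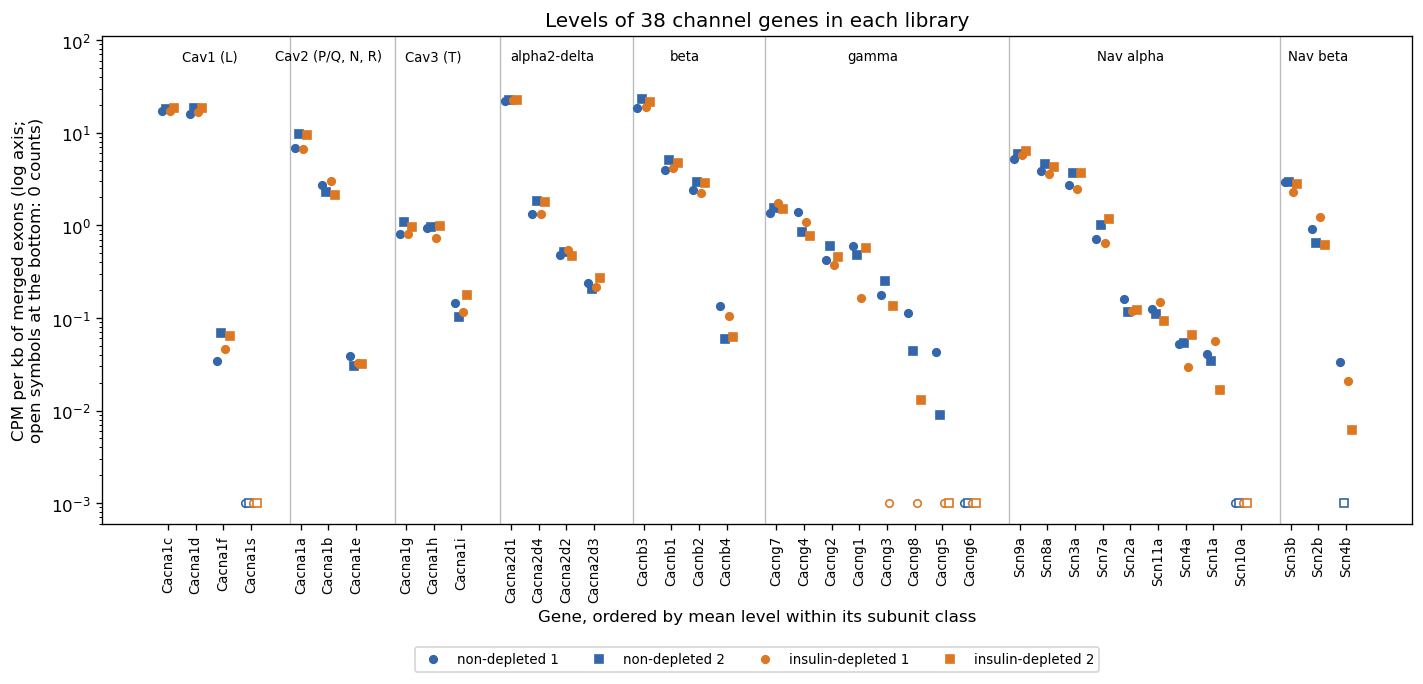
Level of 38 of the channel genes in each library, as CPM per kb of merged exons on a log axis; blue marks the 2 non-depleted and orange the 2 insulin-depleted libraries, circles number 1 and squares number 2. Cacna2d1, Cacnb3, Cacna1c and Cacna1d lie between 16.1 and 22.9 in every library, while Cacna1s, Cacng6 and Scn10a are at 0 counts.

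The sequences just upstream of the transcription starts are shown for 6 members because they differ in CpG content, a feature of many widely used promoters, across the range of levels. They were chosen after their levels were seen, among windows of 250 bases before a RefSeq start (GRCm38.p6) that hold no GENCODE exon, and for Scn8a and Cacng5, which have several, the window with more CpG pairs is shown. The first 3 belong to members with 64.1 to 278 CPM on average, and CpG pairs are in capitals.
Cacna2d1, chr5:15934441-15934690, plus strand, 36 CpG: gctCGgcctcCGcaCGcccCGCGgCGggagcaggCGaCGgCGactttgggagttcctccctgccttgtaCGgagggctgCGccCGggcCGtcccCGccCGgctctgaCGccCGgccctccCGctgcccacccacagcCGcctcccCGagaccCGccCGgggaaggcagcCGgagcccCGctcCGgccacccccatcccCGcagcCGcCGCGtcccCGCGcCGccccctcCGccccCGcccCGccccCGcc
Cacna1d, chr14:30353487-30353736, minus strand, 50 CpG: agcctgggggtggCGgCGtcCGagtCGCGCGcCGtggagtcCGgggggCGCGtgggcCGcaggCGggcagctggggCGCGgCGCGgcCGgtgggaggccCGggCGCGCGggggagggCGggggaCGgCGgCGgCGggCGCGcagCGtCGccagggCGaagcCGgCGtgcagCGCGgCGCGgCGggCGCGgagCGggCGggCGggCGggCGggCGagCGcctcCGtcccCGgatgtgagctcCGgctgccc
Scn8a, chr15:100870395-100870644, plus strand, 30 CpG: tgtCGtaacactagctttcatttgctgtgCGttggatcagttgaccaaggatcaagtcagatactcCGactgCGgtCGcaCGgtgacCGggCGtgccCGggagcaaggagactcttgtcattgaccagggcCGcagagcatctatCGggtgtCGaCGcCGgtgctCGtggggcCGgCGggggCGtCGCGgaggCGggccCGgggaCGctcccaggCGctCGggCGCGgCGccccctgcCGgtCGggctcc
Scn9a, chr2:66634963-66635212, minus strand, 5 CpG: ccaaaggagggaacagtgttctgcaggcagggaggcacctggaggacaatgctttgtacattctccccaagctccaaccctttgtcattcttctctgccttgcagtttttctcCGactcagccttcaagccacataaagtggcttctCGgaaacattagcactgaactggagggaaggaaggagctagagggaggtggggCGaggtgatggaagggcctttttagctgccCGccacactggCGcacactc
Scn11a, chr9:119825457-119825706, minus strand, 3 CpG: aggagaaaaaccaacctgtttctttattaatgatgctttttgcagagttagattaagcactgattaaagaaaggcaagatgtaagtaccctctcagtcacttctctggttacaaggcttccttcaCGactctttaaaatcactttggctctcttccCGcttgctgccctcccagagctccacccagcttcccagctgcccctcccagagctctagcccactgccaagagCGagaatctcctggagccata
Cacng5, chr11:107915056-107915305, minus strand, 12 CpG: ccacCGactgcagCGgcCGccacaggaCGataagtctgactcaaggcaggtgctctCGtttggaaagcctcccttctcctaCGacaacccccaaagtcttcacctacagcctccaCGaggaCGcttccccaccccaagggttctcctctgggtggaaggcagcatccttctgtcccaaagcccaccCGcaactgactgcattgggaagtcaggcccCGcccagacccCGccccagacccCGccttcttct
Scn9a, with 5.80 CPM per kb, and Scn11a, with 0.119 CPM per kb, both had few CpG pairs, so similar windows stood beside very different levels. RefSeq windows matched 30 of the 40 members. Of 15 matched members with at least 2 CPM, 10 had a window with 20 or more CpG pairs. Of 15 under 2 CPM, 2 did (Cacnb4 and Scn4b). Of all genes with RefSeq windows, 19.7% did, but this share covers genes of any level. These counts include windows that overlap GENCODE exons. For Cacna1c, Cacna2d2, Cacnb1, Cacnb2, Cacnb3, Cacnb4 and Scn4b, every window with 20 or more CpG pairs overlapped exons. The 5 at or above 2 CPM without a window of 20 or more CpG pairs were Scn9a, Scn7a, Scn2b, Cacng2 and Cacng7. On either strand, the TATA box TATAAA was found in 2 of the 41 member windows and in 12.4% of all, and the GC box GGGCGG in 15 of 41 and 32.7% of all. The start TTCAGCACC of the element bound by the neuronal repressor REST was found in 0 of 41 member windows and in 0.301% of all. With so low a share in all windows, 0 of 41 cannot show that these genes lack such elements. Gene counts do not show which start the islets used.

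L-type genes made up most of the calcium pore RNA. Cacna1c (ENSMUSG00000051331, chromosome 6, 118587240 to 119196418, minus strand, GRCm38) had 361 and 385 CPM in the 2 libraries without depletion and 362 and 390.1 CPM in the 2 with it, number 1 first. Cacna1d (ENSMUSG00000015968, chromosome 14, 30039939 to 30491455, minus strand) had 203 and 232 CPM in the 2 libraries without depletion and 209 and 233 CPM in the 2 with it, number 1 first. These encode the L-type pore subunits of beta cells, heart and neurons, and per kb they were level: the ratio of Cacna1c to Cacna1d ranged from 0.987 to 1.06 over the libraries, and their ranges overlapped. This ratio depends on the length used, with 1.02 for merged exons, 1.25 for the longest transcript and 1.68 for the longest coding sequence. Of the summed CPM per kb of the 10 calcium pore genes, L-type genes took 72.2 to 74.9%. The other L-type genes lay far below: Cacna1f, best known from the retina, had 0.309, 0.619, 0.415 and 0.586 CPM, given here and below as non-depleted 1, non-depleted 2, insulin-depleted 1, insulin-depleted 2. Cacna1s, the L-type pore of skeletal muscle, had 0 counts in each library. A count of 0 allows up to 3 counts, 0.0618, 0.0516, 0.156 and 0.0463 CPM, which covers counting error only. Most counts of 2 to 9 were even, so these limits may be too low. Of the 6 skeletal and cardiac muscle markers, Myh4 and Myh6 were at 0 as well, 2 were over 3 counts in all libraries, and the list summed to 2.44 to 3.84 CPM.

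The P/Q-type gene Cacna1a was the third calcium pore gene by CPM per kb and the N-type gene Cacna1b the fourth. Cacna1a had 78.4, 109.6, 75.3 and 109 CPM, high in both libraries numbered 2 and low in both numbered 1. Cacna1b, whose channel serves transmitter release in neurons, had 26.9, 23.0, 30.2 and 21.2 CPM, in the opposite order. Cacna1a stood 3.20 times above Cacna1b per kb on average, with no overlap between their ranges. Cacna1e, the R-type pore, had 0.989, 0.757, 0.830 and 0.802 CPM and no more than 0.0878% of calcium pore RNA in any library. T-type channels open at low voltages and need no auxiliary subunit. Cacna1g had 8.12, 11.0, 8.25 and 9.70 CPM and Cacna1h 9.15, 9.44, 7.05 and 9.71 CPM. The 2 could not be ranked, since their ranges per kb overlapped and the first place passed to Cacna1h when non-depleted replicate 2 or insulin-depleted replicate 1 was left out. Cacna1i had 0.998 to 1.76 CPM, and the 3 T-type genes together took 3.67 to 4.24% of calcium pore RNA.

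The alpha2-delta and beta subunits were each led by a single gene. Cacna2d1 (ENSMUSG00000040118, chromosome 5, 15934691 to 16374511, plus strand), whose alpha2-delta protein is a target of gabapentin, had 273, 279, 282 and 278 CPM. Its level was nearly the same in every library, and it took 89.8 to 91.6% of alpha2-delta RNA per kb. Cacna2d4, known from retinal photoreceptors, had 12.6, 17.3, 12.7 and 16.9 CPM and was higher in both libraries numbered 2. Cacna2d2 had 3.81, 4.06, 4.25 and 3.68 CPM, and Cacna2d3 had 2.10, 1.79, 1.87 and 2.37 CPM. All neighbours in this class were apart by their ranges per kb.

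Of the beta subunits, Cacnb3 (ENSMUSG00000003352, chromosome 15, 98630840 to 98644529, plus strand) had 74.1, 91.9, 75.2 and 86.8 CPM. The beta subunits bind the linker between the first and second domain of alpha1, and Cacnb3 took 73.8 to 74.3% of their RNA per kb. Cacnb2 had 31.8, 38.6, 29.7 and 38.0 CPM. Cacnb1 had 17.9, 22.8, 18.8 and 21.4 CPM. These 3 were higher in both libraries numbered 2 than in both numbered 1, while Cacnb4 had 0.533 to 1.20 CPM and the reverse order. Cacnb1 stood above Cacnb2 per kb of merged exons but below it by the longest transcript or coding sequence. The sum of the beta genes was 0.582 to 0.637 times that of the 7 high-voltage-activated pore genes, per kb of merged exons. The alpha2-delta sum was 0.512 to 0.572 times that of the same pore genes. Both ratios depend on the length used, and no other length was tried for them.

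The gamma genes were weakly expressed, and their names mislead: Cacng1 and Cacng6 encode gamma subunits of muscle calcium channels, whereas Cacng2, Cacng3, Cacng4, Cacng5, Cacng7 and Cacng8 encode proteins best known as partners of AMPA-type glutamate receptors. Cacng7 had 3.32, 3.73, 4.25 and 3.64 CPM. Cacng4 had 4.97, 3.06, 3.89 and 2.74 CPM. Cacng2 had 2.31, 3.27, 2.07 and 2.50 CPM. Cacng7 and Cacng4 had overlapping ranges per kb, so that the first place of Cacng7 is not settled by the spread. Cacng1 was under 1 CPM in all 4 libraries. Cacng3 had 24, 40, 0 and 24 counts, Cacng8 13, 6, 0 and 2, and Cacng5 8, 2, 0 and 0. Insulin-depleted replicate 1, the shallowest library, was at 0 for these 3, and Cacng6 was at 0 in every library.

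Sodium pore RNA was spread over 3 genes. Scn9a (ENSMUSG00000075316, chromosome 2, 66480080 to 66634962, minus strand), a tetrodotoxin-sensitive pore known from pain neurons and as a major sodium channel transcript of mouse beta cells, had 66.2, 75.5, 73.8 and 81.1 CPM. Scn8a (ENSMUSG00000023033, chromosome 15, 100869858 to 101045938, plus strand), a pore of nodes of Ranvier, had 60.7, 72.1, 56.3 and 67.4 CPM. Scn3a (ENSMUSG00000057182, chromosome 2, 65457118 to 65567627, minus strand), a pore of developing brain that also carries islet sodium current, had 33.8, 45.6, 30.5 and 46.2 CPM. Together they took 90.4 to 91.3% of sodium pore RNA per kb, with 38.0 to 44.7% for Scn9a, 27.0 to 29.8% for Scn8a and 18.9 to 23.5% for Scn3a. Scn9a was apart from Scn8a by its range per kb, and Scn8a was not apart from Scn3a. Each was higher in both libraries numbered 2 than in both numbered 1.

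Scn7a encodes an atypical, sodium-sensing member that is known from Schwann cells and other support cells. It had 5.28, 7.41, 4.67 and 8.57 CPM, highest in the 2 libraries numbered 2. The summed Schwann markers had 43.5, 44.2, 42.8 and 40.5 CPM, and the part of Schwann cells in the level of Scn7a was not tested. Scn2a, Scn11a, Scn1a and Scn4a did not exceed 2.06 CPM in any library, with means of 1.65 CPM for Scn2a, 0.708 for Scn11a, 0.410 for Scn1a and 0.355 for the skeletal muscle pore Scn4a. Scn10a, a pore of sensory neurons, had 0 counts in each. Sodium pore genes resemble each other: 9.46% of the 31-base stretches of Scn3a transcripts, 8.97% of Scn2a, 7.26% of Scn1a and 5.87% of Scn9a occur in another member, so reads from these stretches are uncertain.

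Among the sodium channel beta subunits, Scn3b had 16.0, 16.0, 12.6 and 15.1 CPM and was lowest in insulin-depleted replicate 1. Scn2b, which binds pore subunits through a disulfide bond, had 4.21, 3.03, 5.71 and 2.87 CPM and was lower in both libraries numbered 2. Per kb of merged exons Scn3b had 2.73 ± 0.295 and Scn2b 0.849 ± 0.282 (SD, n = 4 libraries), and their ranges did not overlap. Scn4b, which also binds through a disulfide bond, had 8, 0, 2 and 2 counts. Calcium pore RNA was 3.20 to 3.48 times sodium pore RNA, both per kb of merged exons, the only length used for this ratio.

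**Figure D2:**
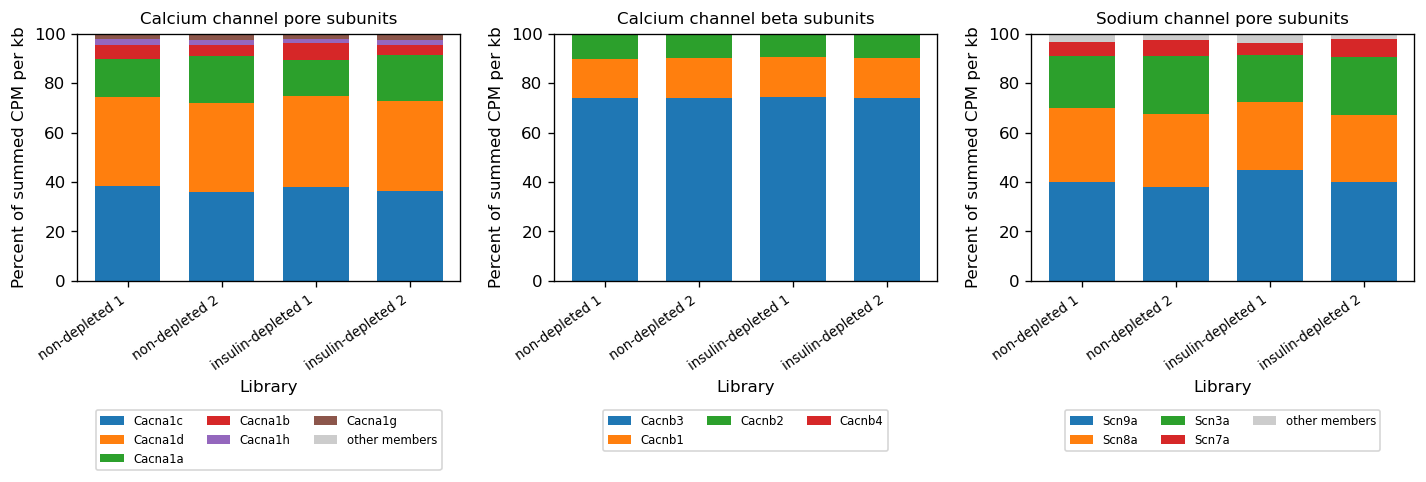
Share of each gene in the summed CPM per kb of its class, in percent, for calcium pore subunits (left), calcium channel beta subunits (middle) and sodium pore subunits (right) in the 4 libraries. The bars of the 2 groups look alike, with L-type genes at 72.2 to 74.9% of calcium pores and Cacnb3 at 73.8 to 74.3% of beta subunits.

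The comparison the design allows is insulin-depleted against non-depleted libraries, which asks whether removing insulin sequences changes what is measured for other genes. No channel gene was called. Of the 40 members, 34 passed the filter on low counts, and 0 were higher and 0 lower (edgeR quasi-likelihood test, adjusted p under 0.05 over 19620 genes), against 0.0102% of all genes tested, which were Ins1 and Ins2. At an unadjusted edgeR p under 0.05 there were 0 members, beside 0.418% of all genes. So few genes passed that line in this fit, which has no replicate term, that 0 members there does not show a lack of change. DESeq2 and limma-voom also called 0 members (0.0102% of all genes for each). TMM scaling called 0 members (0.0101% of all genes), and so did edgeR with the replicate number as a term (0.0459% of all genes). The 6 members that did not pass were Cacna1s, Cacng5, Cacng6, Cacng8, Scn4b and Scn10a. Among those tested, the log2 fold change was positive for 14 and negative for 20, its median being -0.02, against 0.0016 over all genes tested except Ins1 and Ins2, the members included. Of the 23 members with at least 2 CPM, 14 lay within 0.1 of 0 (60.9%), and of the 13317 other genes at that level 77.2% did.

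Cacna2d1 and Cacna1c, with the most counts of the members, had the smallest standard errors. For Cacna2d1 the group means were 276 ± 3.79 and 280.0 ± 2.66 CPM (SD, n = 2 each, non-depleted first), a log2 fold change of 0.02 (SE 0.07, 95% interval -0.15 to 0.19). For Cacna1c they were 373 ± 16.8 and 376 ± 19.9 CPM, with 0.01 (SE 0.08, 95% interval -0.19 to 0.21). Any change of this L-type pore between 0.875 and 1.16 times the non-depleted level thus lies inside the interval. For Cacna1d the means were 218 ± 20.7 and 221 ± 16.6 CPM, with 0.02 (SE 0.10, 95% interval -0.23 to 0.28). For Cacnb3 they were 83.0 ± 12.6 and 81.0 ± 8.21 CPM, with -0.03 (SE 0.13, 95% interval -0.37 to 0.31). For Cacna1a, whose replicates differed more, they were 94.0 ± 22.1 and 92.2 ± 24.0 CPM, with -0.02 (SE 0.23, 95% interval -0.60 to 0.56). All 5 had an edgeR adjusted p of 1.00, and a p of this size does not show that the levels are equal. The intervals come from the fit without a replicate term, so they include the spread between libraries numbered 1 and 2. For Cacna1a, number 1 had 78.4 CPM without and 75.3 with depletion, and number 2 had 109.6 and 109.2. With the replicate number as a term its log2 fold change was -0.03 (edgeR unadjusted p = 0.493).

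Scn3b and Cacng3, 2 of 34, were lower in both libraries with depletion than in both without, beside 9.38% of all genes. Scn3b had 16.0 ± 0.00690 and 13.8 ± 1.78 CPM, with -0.20 (SE 0.14, 95% interval -0.55 to 0.15), where the 2 non-depleted libraries were nearly identical and insulin-depleted replicate 1 was lowest; without that library it was -0.08, and without insulin-depleted replicate 2 -0.35. Cacng3 had the largest value, -1.33 (SE 0.94, 95% interval -3.70 to 1.04), at 0 to 40 counts a library, and it was -0.68 without insulin-depleted replicate 1, where it was at 0. Without insulin-depleted replicate 2 the one depleted library left was that at 0, and the fitted value, which then depends on the prior count, was -7.65 (edgeR unadjusted p = 0.00205, adjusted p = 1.00, the lone library being assumed to vary like the others). Scn9a had 70.8 ± 6.55 and 77.4 ± 5.12 CPM, with 0.13 (SE 0.10, 95% interval -0.13 to 0.39), and its groups overlapped. Within each number, though, Scn9a was higher with depletion, with 73.8 against 66.2 CPM for number 1 and 81.1 against 75.5 for number 2. With the replicate number as a term its log2 fold change was 0.13 as well, and it was not called. None of these 3 passed the edgeR test, each with an adjusted p of 1.00.

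**Figure D3:**
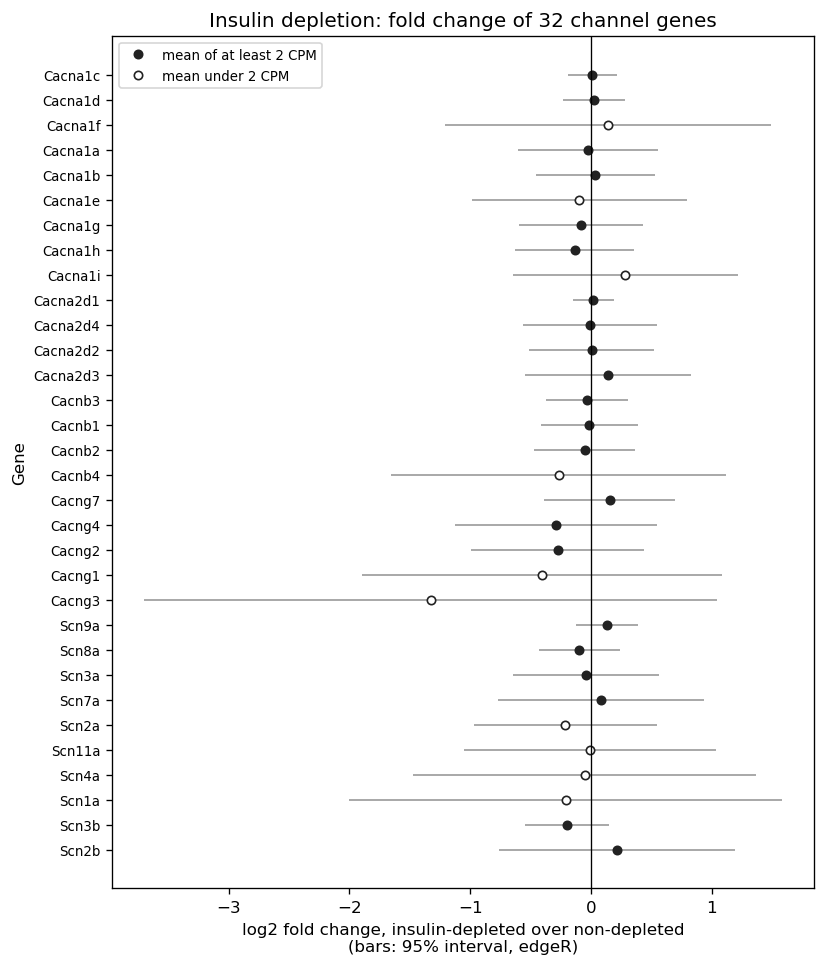
Log2 fold change of insulin-depleted over non-depleted libraries for 32 of the channel genes tested, with 95% intervals from edgeR; filled points have a mean of at least 2 CPM and open points less. Every interval includes 0, the filled points lie between -0.29 (Cacng4) and 0.21 (Scn2b), and Cacng3 stands at -1.33.

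Libraries numbered 1 and 2 differed within both groups. Of the 23 members with at least 2 CPM, 14 were higher in both libraries numbered 2 than in both numbered 1, beside 39.9% of all genes at that level, and 3 were lower (Cacna1b, Cacng4 and Scn2b), beside 30.1%. These are descriptions, with 1 library for each number and group. The log2 ratio of number 2 to number 1 was 0.48 and 0.54 for Cacna1a in the non-depleted and insulin-depleted group, 0.43 and 0.60 for Scn3a, 0.47 and 0.41 for Cacna2d4 and 0.49 and 0.88 for Scn7a. It was -0.22 and -0.51 for Cacna1b, -0.70 and -0.50 for Cacng4 and -0.47 and -0.99 for Scn2b. Cacna1c and Cacna2d1 had smaller ratios, with 0.09 and 0.11 and with 0.03 and -0.02.

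Cell-type markers differed between the numbers as well. Of all 19620 genes tested, 34.9% were higher and 26.9% were lower in both libraries numbered 2 than in both numbered 1. The summed acinar markers had log2 ratios of -1.27 and -1.27, and 7 of the 8 tested were lower in both libraries numbered 2. Of 7 tested peripheral neuron markers, 5 were lower in both, among them Prph (-0.84 and -0.98), which encodes the filament protein peripherin, and 2 were higher, among them the neurofilament gene Nefm (0.29 and 0.26). Their sum ran from 65.0 to 69.9 CPM in non-depleted and from 60.9 to 73.8 CPM in insulin-depleted libraries. Of 6 endothelial markers 5 were higher in both libraries numbered 2, and of 8 beta-cell markers 6 were, and the 2 most abundant, Iapp and G6pc2, were lower. The part of these cells in the channel differences was not tested.

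**Figure D4:**
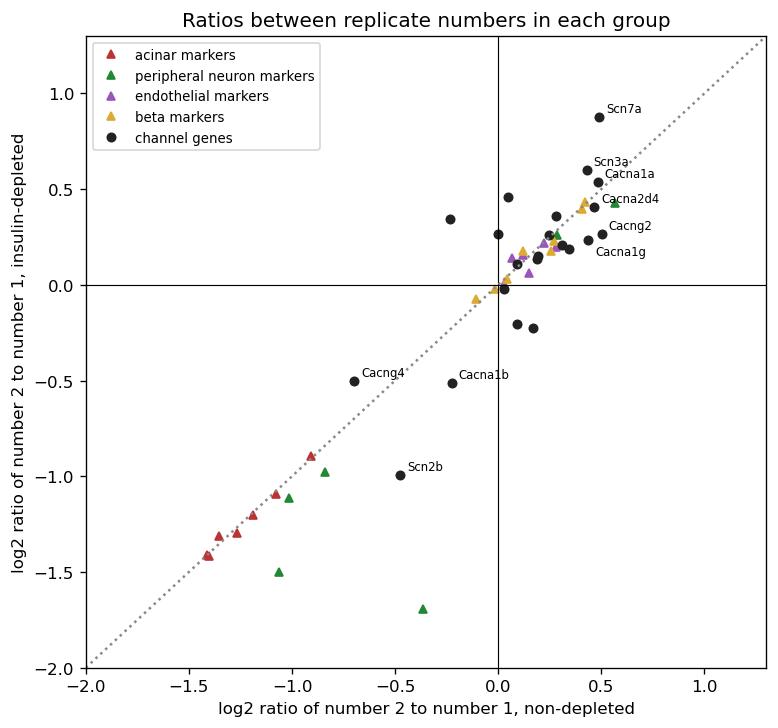
Log2 ratio of replicate number 2 to number 1 in the non-depleted group (x axis) and the insulin-depleted group (y axis), for 22 channel genes with at least 2 CPM (black) and for marker genes at that level (triangles). The dotted line marks equal ratios; Cacna1b, Cacng4 and Scn2b lie below 0 on both axes, as do all acinar markers shown, and most other channel genes lie above 0.

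Genes that work with these channels were listed apart from the members, and none was called. Of the 19620 genes tested, 0.0102% were called by edgeR and 0.418% had an unadjusted edgeR p under 0.05. Apart from Ins1 and Ins2, the log2 fold change was positive for 9965 genes and negative for 9653. The first list held 17 partners of calcium channels, such as calmodulins, active-zone scaffolds and RGK inhibitors. All 17 were tested, with 0 higher and 0 lower by edgeR, 12 positive and 5 negative log2 fold changes, and a median of 0.02. One unadjusted p was under 0.05, for Stac2 (log2 fold change -1.03, SE 0.37, edgeR adjusted p = 1.00), at 12 to 64 counts a library, named after its value was seen. The calmodulin genes Calm2 and Calm3 had log2 fold changes of 0.0040 and 0.0015. The scaffold genes Rimbp2 and Rims2, which tether calcium channels near release sites, had 197 and 85.7 CPM on average and log2 fold changes of 0.02 and 0.08. Cbarp, which encodes a protein that binds beta subunits, had 74.8 CPM and a log2 fold change of 0.02.

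The second list held sodium channel partners and the sodium leak channel, with 11 of its 12 genes in the table and tested. There were 0 called by edgeR (0 at an unadjusted p under 0.05), 6 positive and 5 negative log2 fold changes, and a median of 0.02. Unc80, an accessory subunit of the leak channel, had 416 CPM on average, the leak pore gene Nalcn 49.7 and Unc79 35.3. Their log2 fold changes were 0.02, -0.01 and -0.10. The ubiquitin ligases Nedd4 and Nedd4l, which remove channels from the surface, had log2 fold changes of 0.03 and -0.08, and Ank3, which anchors sodium channels, -0.02, none past the test.

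The third list held 38 other genes of calcium handling, of which 35 were tested. By edgeR 0 were called (0 at an unadjusted p under 0.05), with 19 positive and 16 negative log2 fold changes and a median of 0.01. Atp2a2, the calcium pump of the endoplasmic reticulum, had 1882 ± 143 and 1879.7 ± 149 CPM (SD, n = 2 each) and a log2 fold change of -0.0020. The other pump genes Atp2a3 and Atp2b1 had 0.02 and 0.0003, the sodium-calcium exchanger gene Slc8a1 0.02, the calcium-binding chaperone gene Calr 0.01 and Saraf, a brake on store-operated entry, 0.04. Of the 81 tested markers of 13 cell groups, 0 were called by edgeR (0 at an unadjusted p under 0.05).

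Some members share exon bases with genes on the opposite strand, and whether counting used strand is not given in the sources used here. The shared part of the merged exons was 4.67% for Cacna1d (Chdh), 3.81% for Cacna1a (Gm16183), 7.32% for Cacnb2, 16.0% for Cacnb4, 5.86% for Cacng2 and 1.41% for Scn9a, and 0 for Cacna1c, Cacna2d1, Cacnb3, Scn3a and Scn8a.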

How the data were processed

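Gene counts of 4 islet libraries were deposited by the authors as 1 table of whole numbers with no normalization. The 2 non-depleted columns, handled as estimated counts because of a tag in their names, were deposited by the authors as whole numbers too, so nothing was rounded. The submitters' processing notes name cutadapt 4.8, STAR 2.7.11b and GRCm38 (mm10) without roles. The counting program and its handling of strand and of reads with several matches is not given in the sources at hand. All 55536 gene IDs and symbols matched GENCODE M21, which gave coordinates and exon lengths. Counts of 2 to 9 were even for 80.0 to 84.0% of genes in a library, so counting limits are approximate and may be too low.

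The count test was edgeR 4.0.16, run in R 4.3.3 (filterByExpr, estimateDisp, robust glmQLFit, glmQLFTest on group) over all genes that passed the filter, with library sizes set to totals without Ins1 and Ins2 and no further factor, and p-values adjusted by Benjamini and Hochberg at 0.05. Standard errors and 95% intervals came from the fold change and test statistic. The common dispersion was 0.0294, and 0.00103 with the replicate number as a term. Between the replicates of a group, chi-square divided by its degrees of freedom was 51.0 and 32.7, far above counting noise. DESeq2 1.42.0, limma-voom (limma 3.58.1), TMM scaling, no filter, halved counts, a replicate term and leaving out each library were alternatives. The edgeR step was checked on simulated counts. For the fit on group alone, these were drawn with no effect shared by same-numbered libraries. Same-numbered libraries of the data deviated together, so the check does not cover that feature.

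Values are given for members with at least 2 CPM and the first member of each class, for the 6 most abundant genes of each partner list and for others where stated. The members, lists and tests were chosen with earlier results of these data known. Values of some genes that these rules would name are not reported here.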

Additional observations from a re-analysis of the deposited data

How the results depend on the processing

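No channel gene was called under these alternatives: TMM scaling, DESeq2, limma-voom, no filter on low counts, counts divided by 2, a replicate block, or leaving out each library in turn, and the 3 partner lists and the markers likewise gave 0. Calls over all genes stayed at 2 except with the replicate block, which gave 9 (2 higher, 7 lower), also with TMM scaling, a combination chosen after seeing the data. With the replicate block the smallest p among channel genes was that of Scn9a (unadjusted 0.00466, edgeR adjusted 0.985), and 4 members had an unadjusted p under 0.05. The share of all genes under 0.05 was not computed for this fit, so whether 4 is many cannot be said. Same-numbered libraries deviated together (correlation 0.844 over 11600 genes), but the labels do not state that a number marks a shared animal. Since no member was called, signs are loose: 9 to 15 of 34 changed sign when 1 library was left out, 8 with limma-voom, 2 with DESeq2 and 0 with TMM scaling. The first member of a subunit class was the same in all 8 classes with the longest transcript and in 7 without length scaling, with the longest coding length (chosen after seeing the data), without non-depleted replicate 2 and without insulin-depleted replicate 1. Coding length from a protein table was not run. At 19316173 counts, insulin-depleted replicate 1 limits what can be said of members under 1 CPM.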
